A study of Homo sapiens with 2 samples.

Results

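SWI/SNF complexes are chromatin remodellers that use the energy of ATP to slide or evict nucleosomes and so open DNA to transcription factors. The canonical form, BAF, is built around 1 of 2 mutually exclusive ATPases, SMARCA4 (BRG1) or SMARCA2 (BRM). It also holds a scaffold of SMARCC1 and SMARCC2 (BAF155 and BAF170) and the core subunits SMARCB1 (SNF5) and SMARCE1 (BAF57). It further holds 1 BAF60 subunit encoded by SMARCD1, SMARCD2 or SMARCD3. ARID1A (BAF250A) is a DNA-binding subunit of this canonical form. In prostate cells the BAF60 and BAF57 subunits are known to contact nuclear receptors and to bring the remodeller to hormone-responsive genes.

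The 10 genes just named are described here in C4-2 cells, a human prostate cancer line that derives from LNCaP. One culture had been transfected for 48 h with miR-99a, a microRNA, and the other for 48 h with si-GL2, an siRNA named after a luciferase reporter and used as the control; both were grown in serum and transfected with the same lipid reagent. Total RNA of each was measured on 1 Affymetrix array, so every value below is a single measurement, no difference has a replicate error, and no test or p-value exists. A single line in 1 culture per condition also means that a difference between cultures and an effect of either transfected RNA cannot be told apart. In RNA from bulk cells, fewer cells of a type and less RNA per cell cannot be told apart either.

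A gene was included through all probe sets that the platform annotation assigns to it and to no other gene. This gave 39 of the 54675 probe sets on the array, for 10 of 19775 genes, and 0 further probe sets named a member together with another gene. The number of probe sets ran from 1 for SMARCD2 to 9 for SMARCA4. Levels are the deposited signal intensities on a linear scale. Differences are of log2(signal + 16), always miR-99a minus si-GL2, which understates the change of dim probe sets. A probe set counted as expressed when its mean log2 level reached the median of all probe sets, a signal of 47.2; 29 member probe sets did and 10 did not, and all 10 genes had at least 1 that did. Genes were called higher or lower at 1.5-fold, 0.58 on the log2 scale, which is a rule of size.

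The mature 5p strand of miR-99a is shown because its seed, the bases 2 to 8 that pair with target messages, defines which genes it can be expected to act on; the labels name miR-99a without the strand or sequence that was transfected. The RefSeq table of mature microRNAs (GRCh38.p14, 2545 entries) holds 3 with this seed, which makes up the miR-99 and miR-100 family. The seed stands in capitals.
hsa-miR-99a-5p: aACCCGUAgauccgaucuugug
hsa-miR-99b-5p: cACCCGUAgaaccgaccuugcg
hsa-miR-100-5p: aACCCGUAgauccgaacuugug
Letter by letter, miR-100 differs from miR-99a at 1 position and miR-99b at 4, all outside the seed. The strand of miR-99a lies at chr21:16539101-16539122 on the plus strand, and all 3 are 22 bases long. A message that pairs with the whole seed carries the letters UACGGGU; transcript sequences of the subunits were not used here, so their sites are not shown.

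SMARCD1, which encodes BAF60A, was the member farthest below the control, and it was measured by 2 probe sets that moved apart. The published work on this experiment pursued SMARCD1 as a miR-99a target, so its direction is not independent evidence. Its brightest probe set, 209518_at, had a signal of 240.4 with miR-99a and 474 with si-GL2, a difference of -0.94 or 1.91-fold lower. Its other probe set, 203183_s_at, had a signal of 82.4 with miR-99a and 65.2 with si-GL2, a difference of 0.28. The miR-99a array was thus the lower one by the brighter probe set and the higher one by the dimmer, which was above the level limit on both arrays. The suffix _s_ marks a probe set whose probes match more than 1 transcript, and the brighter one has no such suffix. The annotation assigns both to SMARCD1 and to no other gene. As the mean over both, SMARCD1 was at -0.33, short of 1.5-fold.

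By its brightest probe set SMARCD1 was the gene ranked 54 from the lowest of 12218 expressed genes, and 0.442% of them were at or below its difference. At least 1.5-fold lower were 2.9% of all expressed genes, and 3.73% of the 4740 expressed probe sets whose mean log2 level lay within 0.5 of this one. The gap between both SMARCD1 probe sets, brightest minus second, was -1.21. Across the 5842 genes with at least 2 expressed probe sets the median absolute gap was 0.14, and 4 genes, SMARCD1 among them, had one at least as wide. The brightest probe set called 160 of these genes lower, and their second one was below 0 in 137 and past 1.5-fold in 49. It was above 0 in 23, and in 6, SMARCD1 included, it was at 0.28 or above. Disagreement of the size seen for SMARCD1 was therefore rare on these arrays, counted over genes of all expressed levels. A difference of 0.28 was less unusual at the level of the dimmer probe set. Of 8580 expressed probe sets within 0.5 of its mean log2 level, 13.9% were at or above its difference. Stromal and leukocyte markers also had signals near this level. LUM had 83.4 with miR-99a and 58.1 with si-GL2, and CD3E had 73.2 with miR-99a and 52.8 with si-GL2. Which of both probe sets reports the level of the SMARCD1 message was not tested.

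**Figure D1:**
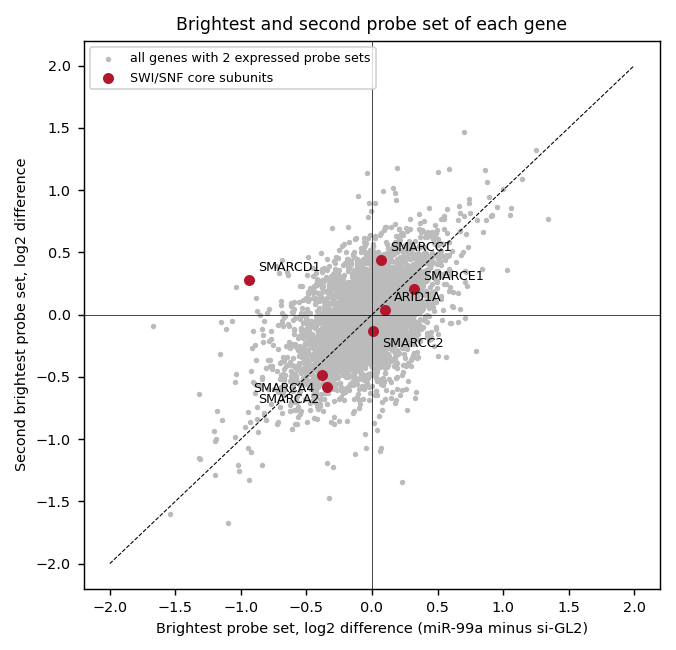
Log2 difference, miR-99a minus si-GL2, of the second brightest probe set (vertical axis) against the brightest (horizontal axis) for each of 5842 genes with at least 2 expressed probe sets (grey), with 7 SWI/SNF core subunits in red; the dashed line marks equal differences. SMARCD1, at -0.94 and 0.28, lies far above the line and outside the cloud, while the other 6 subunits lie inside it.

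The paralogs of SMARCD1, which occupy the same place in the complex, were closer to the control than the brightest SMARCD1 probe set was. SMARCD2, which encodes BAF60B, had a signal of 475 with miR-99a and 408 with si-GL2 by its 1 probe set, a difference of 0.21. SMARCD3 encodes BAF60C, the form best known from heart and muscle. Its expressed probe set had a signal of 94.7 with miR-99a and 119 with si-GL2, a difference of -0.29, and its other one, below the level limit, had 20.4 with miR-99a and 16.7 with si-GL2. Within the BAF60 group SMARCD2 was thus above 0 and SMARCD3 below it, both short of 1.5-fold. SMARCD1 was the 1 gene past it, by its brightest probe set only. By its other probe set (0.28) and as a mean over both (-0.33) SMARCD1 was short of 1.5-fold too.

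Both ATPase genes were lower with miR-99a by nearly all of their expressed probe sets, though mostly by less than 1.5-fold. Of their 10 expressed probe sets 9 lay below 0, with a median of -0.29, where 53.7% of all expressed probe sets lay below 0 and the median was -0.02. The 10 come from only 2 genes, with 7 from SMARCA4, and probe sets of 1 gene are not independent measurements. SMARCA2 was lower by all 3 of its expressed probe sets. Its signals were 387 with miR-99a against 496 with si-GL2 by the brightest, 217707_x_at (-0.34). The next, 206542_s_at, had 265 with miR-99a against 405 with si-GL2 (-0.58, or 1.498-fold), and the dimmest, 206544_x_at, had 121 with miR-99a against 194 with si-GL2 (-0.61, or 1.53-fold). The last of these was past 1.5-fold and the one before it just short. The suffix _x_ marks probe sets with probes that can also bind other transcripts. The other 4 probe sets of SMARCA2 were below the level limit: 212257_s_at had 53.7 with miR-99a against 36.3 with si-GL2 and lay above 0 by 0.42, and the other 3 lay between -0.28 and 0.01. The SMARCA2 result therefore rests on probe sets of the shared or cross-binding kinds.

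SMARCA4 had 7 expressed probe sets, of which 6 were lower with miR-99a. The brightest, 208794_s_at, had a signal of 662 with miR-99a and 869 with si-GL2, a difference of -0.38. The second, 213720_s_at, had 595 with miR-99a and 841 with si-GL2, a difference of -0.49. The difference was nearer 0 in the dimmer ones. It was -0.23 for 214728_x_at (477 with miR-99a against 564 with si-GL2) and -0.19 for 212520_s_at (319 with miR-99a against 367 with si-GL2). It was -0.13 for 215714_s_at (321 with miR-99a against 352 with si-GL2) and -0.08 for 1569073_x_at (176 with miR-99a against 187 with si-GL2). Among expressed probe sets of like level, from 21.1% (214728_x_at) to 43.2% (1569073_x_at) were at or below these dimmer ones. The shares were 7.89% for 208794_s_at and 4.27% for 213720_s_at. The dimmest expressed one, 208793_x_at, was the exception at 0.12, with 110.4 with miR-99a and 100.4 with si-GL2. Both probe sets below the limit were higher with miR-99a, with signals of 17.4 and 18.9 with miR-99a and of 10.2 and 7.35 with si-GL2. As a mean over all 9 probe sets, these included, SMARCA4 was at -0.05. All 7 expressed probe sets of SMARCA4 carry the _s_ or _x_ suffix, and 0 of the 7 passed 1.5-fold.

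**Figure D2:**
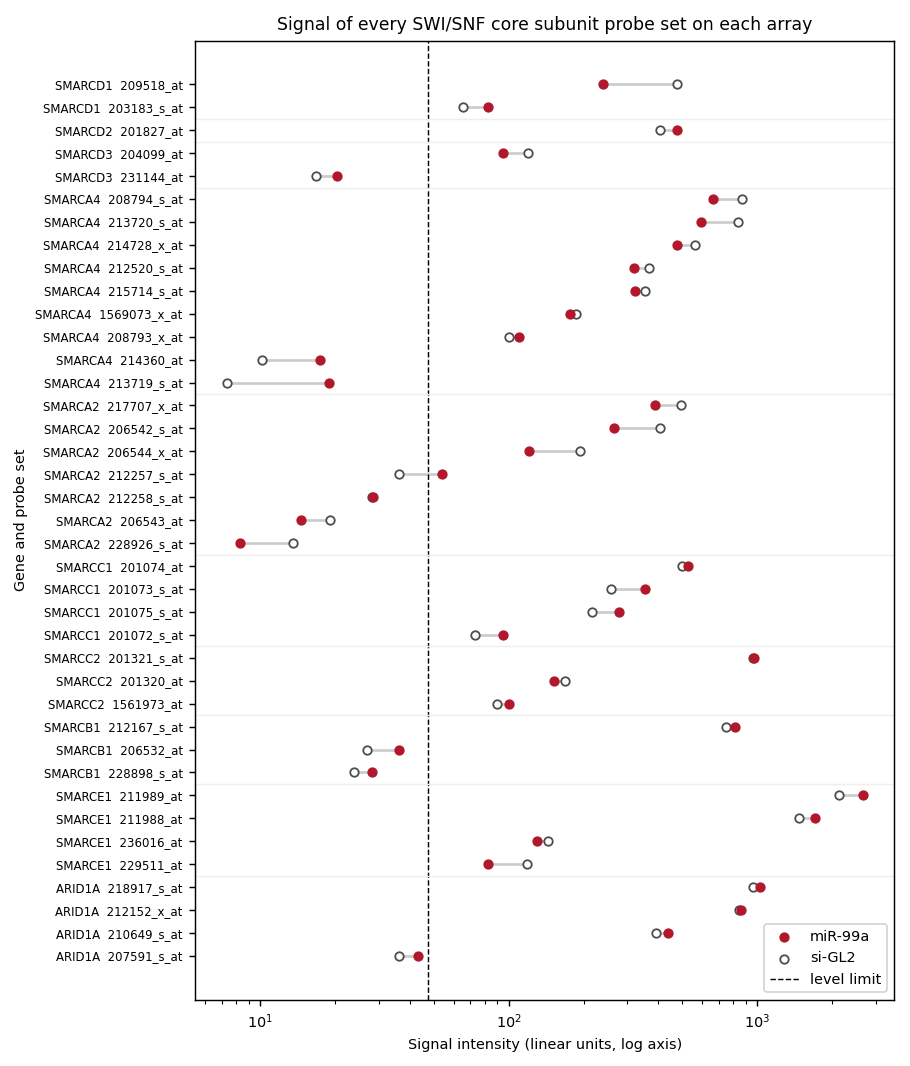
Signal intensity (linear units on a log axis) of the 39 probe sets of the 10 SWI/SNF core subunit genes with miR-99a (filled red) and with si-GL2 (open), with 1 row per probe set and a grey line joining both arrays. The dashed line is the level limit of 47.2; the widest separation above it is that of 209518_at of SMARCD1, with 240.4 with miR-99a and 474 with si-GL2.

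The scaffold and core subunits, which hold the complex together, were above 0 in 9 of their 12 expressed probe sets, where 46.3% of all expressed probe sets were; SMARCC1 supplied 4 of the 9, and 0 of the 12 passed 1.5-fold. SMARCC1 was higher with miR-99a by all 4 of its probe sets. Its brightest, 201074_at, had 525 with miR-99a and 499 with si-GL2 (0.07), the smallest difference of the 4. The other 3 had 354, 279 and 94.97 with miR-99a and, in the same order, 257, 217 and 72.9 with si-GL2, with differences of 0.44, 0.34 and 0.32. The largest member difference above 0 among expressed probe sets was thus that of 201073_s_at of SMARCC1. As a mean over its probe sets SMARCC1 was at 0.29. Its paralog SMARCC2 differed less. Its 3 probe sets had 972, 152 and 100.2 with miR-99a and, in the same order, 964, 169 and 90.0 with si-GL2, with differences of 0.01, -0.13 and 0.13.

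SMARCE1, which encodes BAF57, had the highest gene difference of the 10, and its probe sets disagreed by level. The 2 brightest were higher with miR-99a, 211989_at with 2658 with miR-99a and 2126 with si-GL2 (0.32) and 211988_at with 1710 with miR-99a and 1478 with si-GL2 (0.21). The 2 dim ones were lower: 236016_at had 130 with miR-99a and 143 with si-GL2 (-0.13), and 229511_at had 82.6 with miR-99a and 119 with si-GL2 (-0.45). Over all 4 probe sets the mean was -0.01. SMARCB1, the subunit lost in rhabdoid tumours, had 812 with miR-99a and 748 with si-GL2 by its 1 expressed probe set (0.12), and its 2 probe sets below the limit were also above 0, at 0.29 and 0.15.

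ARID1A, which places the canonical complex at enhancers and is often mutated in cancers, was level between the arrays. Its 3 expressed probe sets had 1027, 863 and 436 with miR-99a and, in the same order, 958, 842 and 393 with si-GL2. The differences were 0.10, 0.04 and 0.15, a range of 0.11. This was the closest agreement among the 6 members with at least 3 expressed probe sets.

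**Figure D3:**
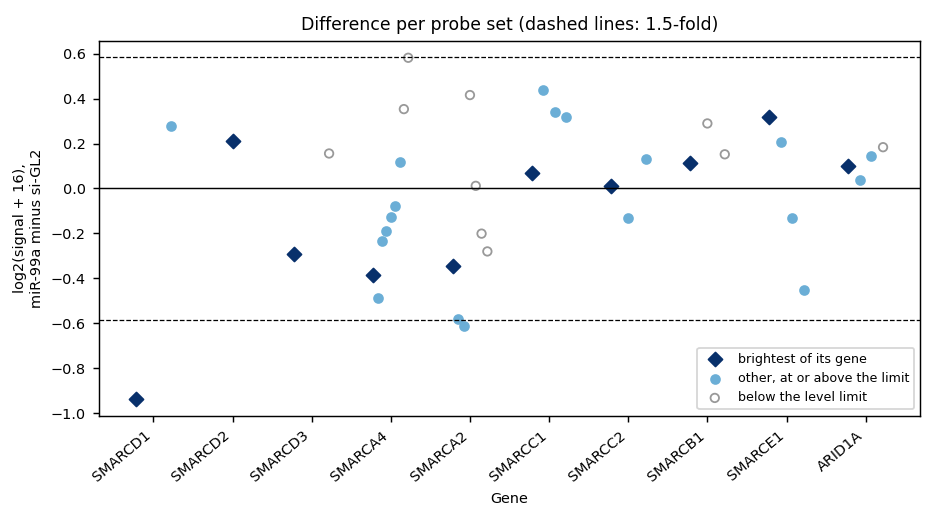
Difference of log2(signal + 16), miR-99a minus si-GL2 (vertical axis), for each probe set of the 10 genes (horizontal axis); diamonds are the brightest probe set of a gene, filled circles other expressed ones, open circles those below the level limit, and dashed lines mark 1.5-fold. SMARCD1 by its brightest probe set (-0.94) and SMARCA2 by 206544_x_at (-0.61) lie below the lower line, and no filled symbol lies above the upper one.

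Over all members, the probe sets did not shift to one side. Of the 29 expressed, 14 lay below 0 and 15 above, with a median of 0.01 against -0.02 for all expressed probe sets. At least 1.5-fold lower were 2 of 29 (6.9%), those of SMARCD1 and SMARCA2, beside 2.57% of all 27338 expressed probe sets. The count was 1, with SMARCD1 alone, with a pseudocount of 64, with quantile normalization, with a higher level limit and without _x_ probe sets, and it was 0 at 2-fold. At least 1.5-fold higher were 0 of 29, beside 1.48%. By brightest probe set 4 genes were below 0 and 6 above, with a median of 0.04 against -0.03 for all expressed genes; 1 of 10 was 1.5-fold lower, beside 2.9% of all expressed genes, and 0 were 1.5-fold higher, beside 1.21%. Apart from SMARCD1, the other 9 genes lay between -0.38 and 0.32. In 5 of the 7 members with a second expressed probe set it had the same sign as the brightest, as it had in 68.1% of all such genes; the exceptions were SMARCD1 and SMARCC2. Of the 10 member probe sets below the level limit 8 were above 0, between 7.35 and 53.7 in signal, beside 51.2% of all probe sets below the limit.

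Of 21 further subunits of the SWI/SNF complexes 17 were expressed, and their differences lay between -0.22 and 0.13. Of the 17, 11 lay below 0 and 6 above, and the median was -0.04 against -0.03 for all expressed genes. None was past 1.5-fold (0 lower and 0 higher), which with 17 genes is near the background of 2.9% lower and 1.21% higher. Lowest were PHF10, a subunit of the PBAF form, at -0.22 (491 with miR-99a against 576 with si-GL2) and BCL7A at -0.20 (62.8 with miR-99a against 74.7 with si-GL2). The mean over both BCL7A probe sets, 1 of them below the level limit, was 0.08. Highest were ACTL6A, the actin-related subunit, at 0.13 (2463 with miR-99a against 2249 with si-GL2) and the reader subunit DPF2 at 0.04 (615 with miR-99a against 599 with si-GL2). ARID1B, the paralog of ARID1A, was at -0.18 and had 4 expressed probe sets, all below 0, from -0.28 to -0.07. PBRM1 and ARID2, which define PBAF, were at -0.02 and -0.04 by their brightest probe sets. Their expressed probe sets lay on both sides of 0, from -0.21 to 0.21 for PBRM1 and from -0.04 to 0.17 for ARID2. SMARCD1 thus stood outside the range of the further subunits, -0.22 to 0.13, as did 5 other members.

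Remodellers of other families held 1 lower gene past 1.5-fold among 52 and 0 higher ones, near the background of 2.9% lower and 1.21% higher. In the ISWI family (13 expressed genes, median 0.01) this was the ATPase SMARCA5, also pursued in the published work, at 522 with miR-99a against 934 with si-GL2 (-0.82), with all 3 probe sets between -0.94 and -0.79. The probe sets of SMARCA5 thus agreed where those of SMARCD1 did not. POLE3 was the next lowest ISWI gene (-0.15), and RSF1 (0.42) and BAZ2B (0.39) were highest. The 17 CHD and NuRD genes had a median of -0.02, from MBD3 (-0.38) and GATAD2A (-0.16) to CHD2 (0.22) and MTA3 (0.28). The 22 genes of INO80, SRCAP and TIP60 had a median of 0.08, from INO80E (-0.31) and ACTR6 (-0.26) to EP400 (0.38) and TRRAP (0.42). By their other expressed probe set EP400 was at -0.12 and MTA3 at -0.19. The other genes named in these 3 families stayed on the same side of 0 by their expressed probe sets. As a mean over both of its probe sets, 1 of them below the level limit, ACTR6 was at 0.08. The SWI/SNF members spanned a range, -0.94 to 0.32, whose lower end is SMARCD1 alone.

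**Figure D4:**
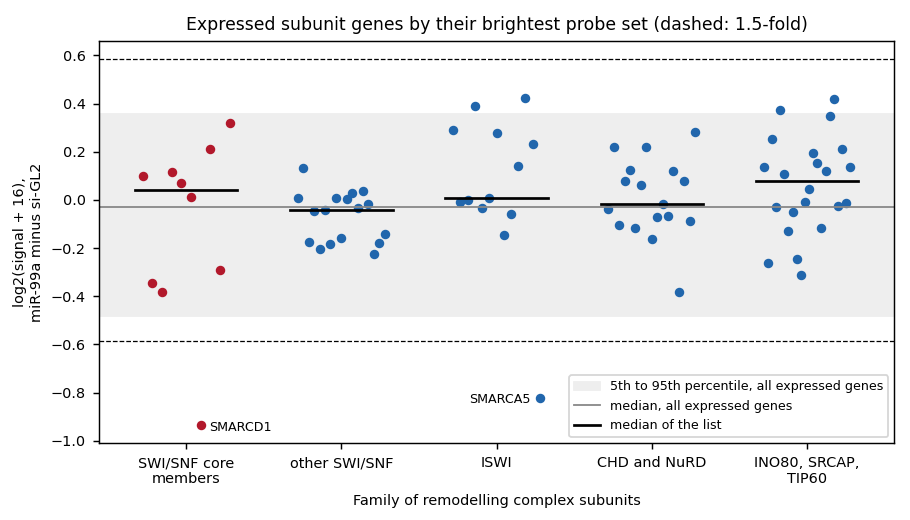
Difference of log2(signal + 16), miR-99a minus si-GL2, of each expressed subunit gene by its brightest probe set (vertical axis) in 5 families of remodelling complexes (horizontal axis); bars are list medians, the grey line is the median of all expressed genes (-0.03), the band runs from their 5th to their 95th percentile (-0.48 to 0.36), and dashed lines mark 1.5-fold. SMARCD1 (-0.94) and SMARCA5 (-0.82) lie alone below the lower line.

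The expressed genes whose levels on both arrays lay nearest those of the brightest SMARCD1 probe set were FAM229B, PART1, DESI2, ELF5 and KCTD10, at Euclidean distances of 0.0055, 0.099, 0.11, 0.11 and 0.13 over log2 levels on the 2 arrays. Such likeness over 2 arrays says only that signals and differences were alike. FAM229B, for example, had 241 with miR-99a and 475 with si-GL2. Unlike SMARCD1, ELF5 and KCTD10 were lower by both of their expressed probe sets, with differences between -1.10 and -0.92 and between -1.26 and -1.01. DESI2 had 4 expressed probe sets between -1.04 and 0.11, and the second of PART1 was at -0.00.

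The arrays themselves were alike, with median signals of 47.8 with miR-99a and 47.4 with si-GL2. The cells carried the markers of a luminal prostate line: 7 of 7 examined were expressed on both arrays, among them KLK3, TMPRSS2 and HOXB13. Their summed signal was 28266 with miR-99a and 28250 with si-GL2. Of markers of other cell types, 6 of 8 for stroma, 2 of 6 for leukocytes, 2 of 6 for endothelium and 2 of 4 for basal epithelium were expressed. By brightest probe set 0 of these passed 1.5-fold. The 4 expressed probe sets of EGFR ran from 0.27 to 0.65, the highest of them past 1.5-fold. The summed signals with miR-99a and with si-GL2 were 644 and 592 for stroma, 232 and 182 for leukocytes, 378 and 391 for endothelium, and 2097 and 1511 for basal epithelium, the last carried by EGFR and ITGA6. None of the markers analysed was listed at 0, and the leukocyte marker PTPRC (39.5 with miR-99a and 22.5 with si-GL2) and the basal keratin KRT5 (20.1 with miR-99a and 14.8 with si-GL2) were below the level limit. The part of these markers in the subunits' differences was not tested.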

How the data were processed

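Total RNA of the miR-99a culture and of the si-GL2 culture was extracted with Trizol, biotin-labelled and hybridised following Affymetrix, per the labels' protocols. What the authors deposited is a linear signal intensity for every probe set on each array; how probes were summarised and arrays scaled is not given in the sources used here. Neither detection calls nor scanner files were used. The number of arrays, 1 per group, limits the precision. The platform annotation gave 1 gene name to 41091 probe sets and several to 1801, while 62 were Affymetrix controls and 11721 stayed unnamed. Values were used as deposited, since the array medians differed by 0.01 on the log2 scale. A gene's brightest probe set, by mean log2 level over both arrays, stood for the gene. Named were all members, the 2 highest and 2 lowest genes of each other family, any gene past 1.5-fold and the 5 genes nearest to SMARCD1; ARID1B, PBRM1 and ARID2 were added after their values were seen. The members and lists were chosen with earlier results of these data known. Alternatives were pseudocounts of 1 and 64, quantile normalization, centring, other level limits, the mean over probe sets, leaving out _x_ or _s_ probe sets and a 2-fold rule. The calls were tested on simulated data only as a check of the code. Their accuracy at 1.5-fold on these arrays was not tested. Python 3.11.15, numpy 2.4.6, pandas 2.3.3 and matplotlib 3.10.9 were used.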

Additional observations from a re-analysis of the deposited data

How the results depend on the processing

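With 1 array per condition no alternative can stand in for a replicate, and all values here describe the same 2 arrays. No paired analysis was possible because each group holds 1 array. A value with no test was counted as changed when it moved by at least 0.18. This limit is the standard deviation of the gap between a gene's 2 brightest expressed probe sets, divided by the square root of 2. A count was called changed when it moved by over 1.5 times. Of 10 alternatives, 5 could not alter the brightest SMARCD1 probe set, and under the 4 that change its scale it lay between -0.98 and -0.82. Averaging its probe sets gave -0.33, short of 1.5-fold, and -0.94 is short of a 2-fold rule. The gap between its probe sets was -1.002 with a pseudocount of 64. The count of member probe sets at least 1.5-fold lower, 2 as reported, was 1 with a pseudocount of 64, with quantile normalization, with the 75th percentile as level limit, without _x_ and _s_ probe sets, and without _x_ probe sets alone, an alternative chosen after seeing the data. It was 0 under a 2-fold rule and 3 with a pseudocount of 1. Among all expressed genes the share at least 1.5-fold lower, 2.9% as reported, was 1.46% with a pseudocount of 64, 1.73% as means over probe sets and 0.336% at 2-fold; the share higher, 1.21% as reported, was 0.606%, 0.794% and 0.139% under these, and 2.90% without a level limit. As means over all probe sets SMARCD3 was at -0.07, SMARCA4 at -0.05, SMARCC1 at 0.29 and SMARCE1 at -0.01, and without _x_ probe sets SMARCA2 was at -0.58. Of 85 such values of the member genes other than SMARCD1, 80 moved by less. Many of the 80 could not move, because the level limits and the 2-fold rule leave a gene's brightest probe set as it is. The 80 is therefore no measure of stability. The median over the member genes lay between -0.03 and 0.08 and so had no settled side of 0. Without _x_ and _s_ probe sets no value exists for the SMARCD1 gap, and SMARCA4, SMARCA2, SMARCB1 and ARID1A had no expressed probe set left.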
